A study of Mus musculus with 89 samples.

Results

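The cells described here are quiescent neural stem cells of the mouse dentate gyrus that carry 1 of 3 colour codes, a green, in the authors' deposited table of cell groups. They were chosen by 2 entries of that table, the class qNSC (read here as quiescent neural stem cell) and the green code, and were then divided by age. This gave 25 of the 89 cells of the series, 15 of them taken at 2 months and 10 at 4.5 months of age. Green-coded cells made up 15 of the 32 qNSC cells (46.9%, exact 95% interval 29.1 to 65.3) in the younger group and 10 of 28 (35.7%, 18.6 to 55.9) in the older. Holding the colour fixed sets the ages side by side without the mix of colours entering the difference.

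Neural stem cells of the dentate gyrus are radial, astrocyte-like cells that remain in the adult hippocampus and give rise to granule neurons by way of dividing intermediate progenitors. Most are quiescent at any time, a state kept by Notch and BMP signals and left under growth factor and Wnt signals. Because they share much of their transcriptome with astrocytes, markers such as Aldoc and Slc1a3 are found in both.

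All mice were homozygous for Nestin:CFPnuc (B6.Cg-Tg(Nes-CFP)1Enik/J, strain C57BL/6), in which regulatory sequence of the Nestin gene drives a nuclear cyan fluorescent protein, and no further treatment or allele is given for either age. Viable cells were sorted singly from dissociated dentate gyrus and kept cold. Each was amplified with a full-length, template-switching kit (SMART-Seq v4) whose volumes had been reduced, so that each deposited sample is 1 cell. The Nestin reporter limits the cells to those in which the transgene was active. The labels name no animal, litter, sort day or plate, and how class and colour were assigned is not stated, so each age is 1 sample. Differences are therefore sizes in these cells with their spread over cells, no test between the ages was possible, and p-values are not given.

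Total estimated counts per cell ran from 479073 to 1486350 at 2 months and from 450012 to 1248178 at 4.5 months, and the median cell had reads of 3898 and 3549.5 genes. Thinned to 595821 reads, with 1 shallower cell left out at each age, the medians were 3617 and 3433 genes. By their markers the cells were stem-cell-like and astrocyte-like at once. All 25 cells had 10 or more reads of at least 50% of the 20 stem cell markers and of the 16 astrocyte markers. At 4.5 months 2 cells also reached 50% of another type's markers. Cell 34 had 9 of 9 oligodendrocyte markers, with a summed level of 47024 CPM (counts per 1000000 counts of the cell), against at most 1268 CPM in the 2-month cells. Cell 27 had 5 of 10 granule neuron markers, with a summed level of 1471 CPM, below the highest 2-month cell at 1951 CPM. Cycling markers reached at most 20% in any cell, and interneuron markers had no read in any of the 25 cells.

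The ages also differed in sex-linked transcripts. At least 1 Y-linked gene had 10 or more reads in 11 of 15 cells at 2 months and in 0 of 10 at 4.5 months. Xist or its antisense partner Tsix, transcripts of the X-inactivation centre, had 10 or more reads in 0 of 15 and 9 of 10 cells. The labels give no sex. Age and this pattern cannot be told apart, and every difference that follows is a difference between cells that also differ in it. Of 231 measured X-linked genes other than these, 32 (13.9%) were called higher and 40 (17.3%) lower, near the shares over all genes given next. These shares are no test of the pattern, and they do not show which differences go with it.

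A gene was counted as measured when it had 10 or more reads in at least 20% of cells at either age, which 7411 of 24411 genes did. It was called higher or lower at 4.5 months when its mean log2(CPM + 1) differed by at least 1 and the CPM of its summed counts by at least 2 times in the same direction. By this rule 1011 genes (13.6%) were called higher and 1164 (15.7%) lower, and the median difference over all measured genes was 0.02 on the log2 scale. Few of these calls stood clear of the spread between cells. The difference was larger than the larger of the 2 SDs over cells for 13 of the genes called higher (1.29%) and 17 of those called lower (1.46%), and for 0 genes did the cells of the ages not overlap. A single cell held at least 50% of the reads behind 475 of the higher calls (47%) and 295 of the lower calls (25.3%). With each of the 25 cells left out in turn, 351 higher calls (34.7%) and 546 lower calls (46.9%) were met every time. Among the 554 genes with 10 or more reads in at least 80% of the cells of both ages, 3 (0.542%) were called higher and 7 (1.26%) lower. Calls thus lay mostly in genes read in some cells and not in others, and a call is a size in these cells, not evidence of an effect of age.

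The cells of the ages were about as like each other as cells of 1 age. Over measured genes, the median Spearman correlation was 0.2835 between cells of 2 months (105 pairs), 0.2708 between cells of 4.5 months (45 pairs) and 0.271 between cells of different ages (150 pairs). These are correlations across genes, pairs share cells, and all share the same laboratory steps, so they are descriptions only.

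**Figure D1:**
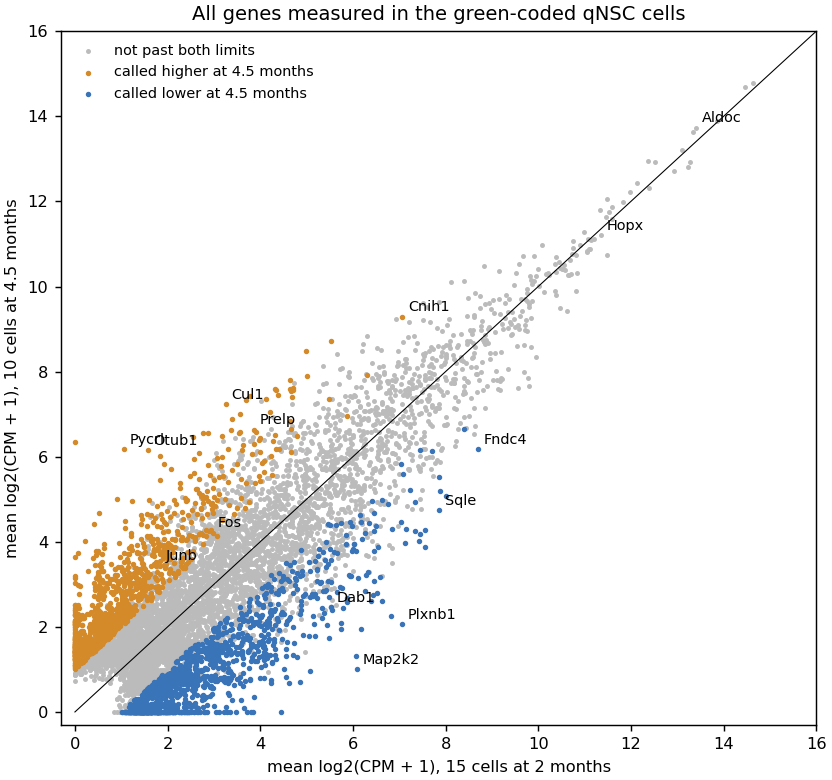
Mean log2(CPM + 1) of each of the 7411 measured genes over the 15 cells at 2 months (horizontal) and the 10 cells at 4.5 months (vertical), with the line of equal means. The 1011 genes called higher and 1164 called lower lie mainly at low and middle levels, while highly expressed genes such as Aldoc and Hopx lie near the line.

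Hopx, Aldoc, Apoe and Slc1a3, which mark stem cells and astroglia, were close to equal at the 2 ages, whereas other markers had lower or higher means at 4.5 months. Apoe and Slc1a3 were picked out after their values were seen. Hopx, a homeodomain gene used as a marker of quiescent stem cells (mm10 chromosome 5, 77086988 to 77115121), ran from 795 through a median of 3094 to 6972 CPM at 2 months and from 164 through 3176 to 4903 CPM at 4.5 months. Its mean log2(CPM + 1) was 11.36 ± 0.81 (SD, n = 15 cells) and 11.21 ± 1.38 (n = 10 cells). The cells of both ages were spread over the same range, with 1 low cell at 4.5 months. That was cell 34, the cell with the oligodendrocyte markers. Aldoc, a glycolytic enzyme abundant in astroglia, had 13.41 ± 0.59 and 13.73 ± 0.53, and Apoe, the lipid carrier secreted by astroglia, 14.63 ± 0.34 and 14.77 ± 0.27. Slc1a3, a glial glutamate transporter, had 13.22 ± 0.47 and 12.80 ± 0.86. Id4, an inhibitor of basic helix-loop-helix factors that keeps stem cells quiescent, was at 9.42 ± 0.68 and 8.87 ± 1.61. Sox9, a transcription factor of astroglia and stem cells, had 8.67 ± 0.80 and 7.94 ± 2.87, and 1 cell at 4.5 months had no read of it. Gfap, the astroglial intermediate filament, was lower in its mean, at 9.14 ± 1.03 and 7.60 ± 3.31, with a summed ratio of 0.831. Cell 34 of 4.5 months had no read of it. Entpd2 and Frzb, which also serve as markers, had differences of -1.95 and -2.18 and are described further on. Markers with higher means at 4.5 months included Aqp4 and Glul, at differences of 1.43 and 1.92, and Sox21, which was called higher. Nes, whose regulatory sequence drives the reporter, had 10 or more reads in 1 of 15 and 0 of 10 cells, so the endogenous transcript was at or near 0 in nearly all of the sorted cells.

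Regulators of stem cell identity differed in both directions. Of 24 measured stem cell transcription factors and identity genes, 4 (16.7%) were called lower (Id3, Nr2e1, Nfib and Pax6) and 3 (12.5%) higher (Foxo1, Hes1 and Sox21), near the 15.7% and 13.6% over all genes, and the list median was -0.16, with the opposite sign among genes read in at least 50% of cells and when 1 of 4 cells was left out. Id3, a target of BMP signals, ran from 0 through 166 to 891 CPM at 2 months and from 0 through 0 to 594 CPM at 4.5 months. It had 10 or more reads in 10 of 15 and 3 of 10 cells, and its mean difference was -3.27. Nr2e1, the orphan receptor TLX that maintains the neural stem cell pool, had 10 or more reads in 11 of 15 and 3 of 10 cells (difference -3.07), and Nfib, a nuclear factor I gene of astroglial development, in 13 and 6 (-3.26). Pax6, a paired-box factor of radial glia, had them in 4 and 2 (-1.13). The cells of the ages overlapped for each of these. Hes5, an effector of Notch, was at 6.62 ± 2.91 and 3.19 ± 3.80, with 10 or more reads in 13 of 15 and 4 of 10 cells, but its summed level differed by less than 2 times (252 and 141 CPM) and it was not called. Foxo1, a transcription factor held in the cytoplasm by insulin signalling, was among those called higher, with 10 or more reads in 5 of 15 and 8 of 10 cells and a difference of 3.38. Hes1, another effector of Notch, had 10 or more reads in 4 of 15 and 5 of 10 cells (1.10), and Sox21, a SoxB factor, in 1 and 3 (1.55). Sox21 was measured only through the 4.5-month cells, where it was higher.

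BMP and TGF-beta genes were split as well. Of 13 measured, 3 (23.1%) were called higher, beside 13.6% of all genes, and 2 (15.4%) lower, beside 15.7%. The list median was -0.42, and it was 0 with medians over cells. The lower calls were of Id3 and of Bmpr1a, a type I BMP receptor, at summed levels of 148 and 22 CPM. The higher calls were of Smad4, the shared signal transducer, with 10 or more reads in 4 of 15 and 5 of 10 cells, and of the receptors Tgfbr2, with them in 1 and 2 cells, and Acvr2b, in 0 and 2. Tgfbr2 and Acvr2b were measured only through the 4.5-month cells, where they were higher.

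Immediate early genes, which are transcribed within minutes of a stimulus and encode transcription factors such as Fos, Junb and Egr1 and feedback regulators such as Dusp1 and Btg2, gave the list with the highest median. The promoters of 5 members called higher are shown. Fos, Fosb and Junb were high together in the same few cells, and Btg2 and Dusp1 followed that pattern less closely. Egr1 and Ier2, the other 2 called members, are not shown and no matches are given for them. The 5 shown therefore give no share for the called members as a set. Each sequence is from RefSeq (GRCm38.p6), runs 5′ to 3′ on the gene's strand from 250 bases before to 50 bases after the start, and has in capitals the matches to TGACG, the core of the cAMP response element, on either strand, to its full palindrome TGACGTCA, which contains TGACG, and to TATAAA. The Fos promoter is chr12:85473640-85473939 on the plus strand, and the others are on the minus strand: Fosb at chr7:19309996-19310295, Junb at chr8:84978699-84978998, Btg2 at chr1:134079106-134079405 and Dusp1 at chr17:26508423-26508722.
Fos: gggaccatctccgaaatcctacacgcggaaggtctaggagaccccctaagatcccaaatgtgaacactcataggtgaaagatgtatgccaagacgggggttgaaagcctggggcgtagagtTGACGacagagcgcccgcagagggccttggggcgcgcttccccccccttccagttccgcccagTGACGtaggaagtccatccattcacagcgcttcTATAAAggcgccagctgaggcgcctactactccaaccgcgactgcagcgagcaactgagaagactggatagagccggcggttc
Fosb: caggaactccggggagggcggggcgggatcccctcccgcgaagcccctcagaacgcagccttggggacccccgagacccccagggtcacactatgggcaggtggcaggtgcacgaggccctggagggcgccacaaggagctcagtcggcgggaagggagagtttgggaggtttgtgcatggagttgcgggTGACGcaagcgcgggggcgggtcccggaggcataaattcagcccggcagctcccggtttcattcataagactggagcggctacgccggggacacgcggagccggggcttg
Junb: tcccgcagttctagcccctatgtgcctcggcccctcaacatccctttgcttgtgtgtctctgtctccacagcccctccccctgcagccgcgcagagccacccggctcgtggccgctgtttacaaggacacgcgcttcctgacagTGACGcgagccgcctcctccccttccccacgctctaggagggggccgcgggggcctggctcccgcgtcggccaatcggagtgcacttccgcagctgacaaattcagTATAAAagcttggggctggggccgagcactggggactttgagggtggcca
Btg2: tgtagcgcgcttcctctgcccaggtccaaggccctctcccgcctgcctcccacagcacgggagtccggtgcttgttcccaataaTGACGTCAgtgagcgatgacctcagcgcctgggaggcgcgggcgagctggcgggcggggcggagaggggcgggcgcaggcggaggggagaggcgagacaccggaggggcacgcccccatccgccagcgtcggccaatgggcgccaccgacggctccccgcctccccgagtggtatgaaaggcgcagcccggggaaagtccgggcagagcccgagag
Dusp1: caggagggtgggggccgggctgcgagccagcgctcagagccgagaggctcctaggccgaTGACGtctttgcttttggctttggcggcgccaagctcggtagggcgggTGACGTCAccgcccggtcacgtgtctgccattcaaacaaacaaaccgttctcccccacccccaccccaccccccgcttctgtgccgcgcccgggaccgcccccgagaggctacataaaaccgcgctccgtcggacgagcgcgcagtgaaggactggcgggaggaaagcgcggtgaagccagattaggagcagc
The Fos window held 2 matches to TGACG and 1 to TATAAA, and the Junb window 1 of each. The Fosb window held 1 match to TGACG and 0 to TATAAA. The Btg2 and Dusp1 windows held the palindrome, Dusp1 with a further TGACG. Of 32851 RefSeq promoters of 300 bases, 20.8% held TGACG, 1.79% TGACGTCA and 13.6% TATAAA on either strand. These matches describe the letters only.

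Of 24 immediate early genes 10 were measured, 8 had a higher mean at 4.5 months, and 7 (Fos, Fosb, Junb, Egr1, Ier2, Btg2 and Dusp1) were called higher, against 13.6% of all measured genes. The median difference of the list was 1.37. Of the 10, 7 passed the filter at both ages, while Fosb, Egr1 and Ier2 passed only through the 4.5-month cells, where they were higher. The count and the median are therefore descriptions and no support, and with no filter the median over 21 members was 0.46. Fos ran from 0 through a median of 2.09 to 6897 CPM at 2 months and from 0 through 1.54 to 6667 CPM at 4.5 months. The range was thus the same at both ages, and what differed was how many cells lay at its top. At 2 months 1 of 15 cells was above 1000 CPM (cell 7, 6897 CPM), and at 4.5 months 3 of 10 were (cell 7 at 6667, cell 25 at 6444 and cell 27 at 3014 CPM), while the other 21 cells had at most 267 CPM. Its mean log2(CPM + 1) was 2.97 ± 3.72 and 4.22 ± 5.62, a difference well within the spread over cells, and its median over cells was 0.28 lower at 4.5 months.

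The same 4 cells carried most of the list, and their total counts, from 860783 to 1248178, lay within the range of the 2-month cells. Junb, which encodes a partner of Fos in the AP-1 factor, was at 2672, 2581 and 1452 CPM in cells 7, 25 and 27 of 4.5 months and at 146 CPM in cell 7 of 2 months, and at most 233 CPM elsewhere. Egr1, a zinc finger factor, was at 262, 1021 and 591 CPM in the 3 cells and at 1237 CPM in the 2-month cell, and at most 4.71 CPM elsewhere. Fosb had reads in these 4 cells and in 0 of the other 21. Dusp1, a phosphatase that switches off MAP kinases, did not follow the pattern as closely: it was at 4023 and 2981 CPM in cells 7 and 27 of 4.5 months, at 144 CPM in cell 25, and at up to 545 CPM in cells with little Fos. Btg2, an antiproliferative gene, had its highest level, 667 CPM, in a 4.5-month cell with 2.22 CPM of Fos.

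**Figure D2:**
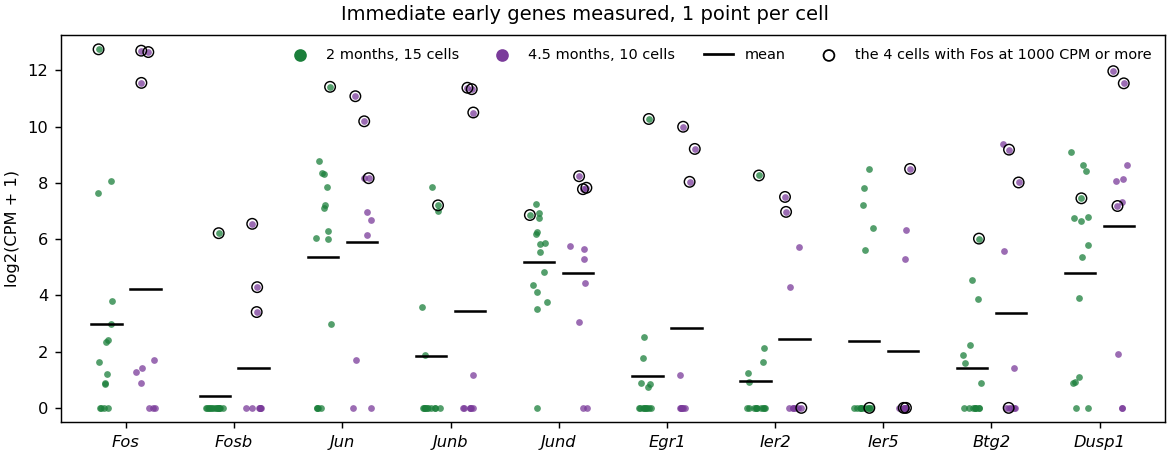
Log2(CPM + 1) of the 10 measured immediate early genes in each of the 25 cells, 2 months in green and 4.5 months in purple, with a bar at the mean and a ring around the 4 cells with Fos at 1000 CPM or more. The ringed cells, 1 of 15 and 3 of 10, hold the top values of Fos, Fosb and Egr1, and the remaining cells of both ages overlap.

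Leaving out cell 7, 25 or 27 of 4.5 months left 3, 2 and 3 early genes called higher, and with medians over cells in place of means 1 was called and the list median was 0. Cell 27 is also the cell with 5 of 10 granule neuron markers. Their summed level was 1471 CPM in it and 249 and 1235 CPM in cells 7 and 25 of 4.5 months. In cell 7 of 2 months it was 1951 CPM. Without cells 27 and 34 of 4.5 months, 5 early genes were called. The part of those markers in the result was not tested. Klf9, Nr3c1 and Pdk4, which respond to or receive glucocorticoids, were also called higher: of 13 measured glucocorticoid-response genes 11 had a higher mean, 4 (30.8%) were called higher (Dusp1 the fourth), beside 13.6% of all genes, and 1 (7.69%) lower, beside 15.7%. The last was Hsd11b1, the enzyme that regenerates active corticosterone. The list median was 0.25, and 4 of the 13, Pdk4 among them, passed the filter only through the 4.5-month cells. Nr3c1, the glucocorticoid receptor, had 10 or more reads in 6 of 15 and 6 of 10 cells, with means of 2.96 ± 3.69 and 4.92 ± 3.81. In the other qNSC cells Fos was at 1000 CPM or more in 2 of 17 cells at 2 months and in 0 of 18 at 4.5 months. Of the early genes 6 were measured in those cells, with a median difference of -0.72. Cells with 10 or more reads of at least 7 of the 10 measured early genes were 1 of 17 and 2 of 18 there, and 1 of 15 and 3 of 10 among the green-coded cells. The difference between the subsets was not tested.

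The largest differences were of genes read in most cells of 1 age and few of the other. Named here by a rule of size are the 12 genes each way with the largest difference in mean among called genes whose share of cells with 10 or more reads also differed by at least 25 percentage points. Pycrl, a cytosolic enzyme of proline synthesis (chromosome 15, 75916477 to 75921560), ran from 0 through a median of 0 to 364 CPM at 2 months and from 0 through 188 to 502 CPM at 4.5 months. It had 10 or more reads in 2 of 15 cells (13.3%, exact interval 1.66 to 40.5) and 8 of 10 (80%, 44.4 to 97.5), and its mean was 1.07 ± 2.68 and 6.18 ± 3.34. Otub1, a deubiquitinase (chromosome 19, 7198202 to 7206316), ran from 0 through 0 to 196 CPM and from 0 through 169 to 422 CPM, with 10 or more reads in 3 of 15 and 8 of 10 cells. For both genes the cells overlapped only in that some cells of each age had no read and some 2-month cells reached the 4.5-month level.

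The other genes of this kind that were higher at 4.5 months served varied functions. Cul1, the scaffold of SCF ubiquitin ligases, had 10 or more reads in 6 of 15 and 9 of 10 cells (difference 3.97), and Coro1b, an actin-binding coronin, in 5 and 8 (3.81). Sept4, a septin, had 10 or more reads in 4 of 15 and 8 of 10 cells. However, 1 cell, the oligodendrocyte-marker cell 34, held 69.1% of its reads at 4.5 months. The Sept4 call was lost when cells 27 and 34 were left out. Sdccag8, a centrosomal protein, and Rfxank, a subunit of the RFX factor of MHC class II genes, had 10 or more reads in 0 of 15 cells each and in 5 and 6 of 10, at summed levels of 0.704 and 206 CPM for Sdccag8. Rfxank shares 33.8% of its exon bases with Nr2c2ap. Scaf11, a splicing-associated factor, and Arsk, a lysosomal sulfatase, each had 10 or more reads in 2 of 15 and 6 of 10 cells. C1galt1c1, the chaperone of the enzyme that extends O-glycans, is X-linked and had 10 or more reads in 1 of 15 and 5 of 10 cells. Gng10, a G protein gamma subunit, shares 72.0% of its exon bases with the readthrough gene Gm20503, so its reads cannot be assigned with certainty. Msantd4 stayed called in 9 of the 25 leave-outs only, with summed levels of 123 and 247 CPM.

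**Figure D3:**
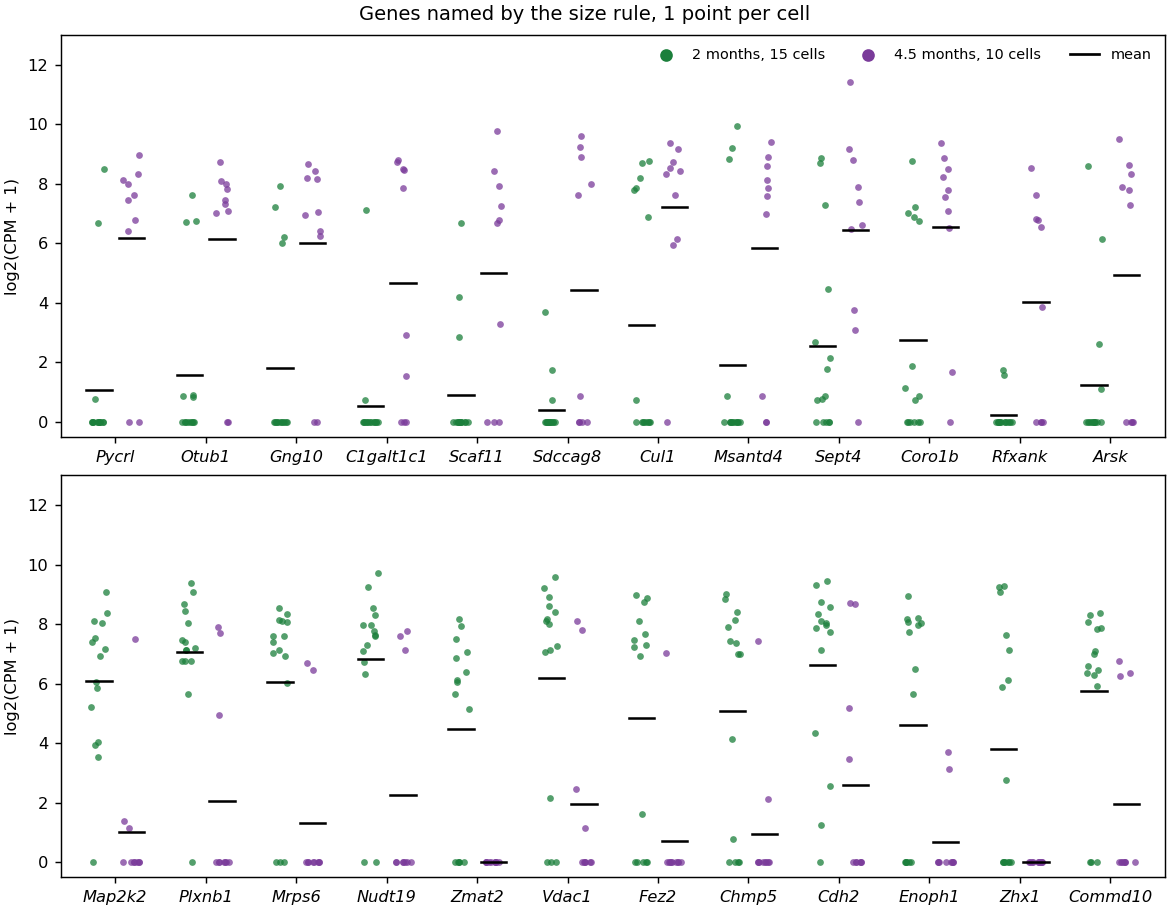
Log2(CPM + 1) in each cell of the 12 genes named as higher (top) and the 12 named as lower (bottom) at 4.5 months, with bars at the means of 15 and 10 cells. In most panels the points of the lower age lie at 0 apart from a few cells that reach the level of the other age, such as 1 of 10 cells for Map2k2.

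Among genes lower at 4.5 months, Map2k2, the MAP kinase kinase MEK2 (chromosome 10, 81105915 to 81133975), ran from 0 through a median of 122 to 538 CPM at 2 months and from 0 through 0 to 181 CPM at 4.5 months. It had 10 or more reads in 13 of 15 cells (86.7%, 59.5 to 98.3) and 1 of 10 (10.0%, 0.253 to 44.5), and its mean was 6.08 ± 2.40 and 1.00 ± 2.35, the largest difference relative to the SD among the genes of this rule, at 2.11 times. Plxnb1, a semaphorin receptor (chromosome 9, 109095389 to 109119917), ran from 0 through 146 to 673 CPM and from 0 through 0 to 241 CPM. It had 10 or more reads in 14 of 15 and 3 of 10 cells, with means of 7.06 ± 2.19 and 2.06 ± 3.40. At 2 months nearly every cell had both genes, and at 4.5 months most had neither. Thinned to equal depth, Map2k2 had 10 or more reads in 11 of 14 and 1 of 9 cells and Plxnb1 in 13 of 14 and 3 of 9.

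The other genes lower at 4.5 months were again varied. Mrps6, a mitochondrial ribosomal protein, had 10 or more reads in 12 of 15 and 2 of 10 cells (difference -4.74), and Vdac1, the main channel of the outer mitochondrial membrane, in 11 and 2 (-4.22). Cdh2, the N-cadherin by which stem cells adhere to neighbours, had 10 or more reads in 12 of 15 and 4 of 10 cells and summed levels of 255 and 88.6 CPM. Zmat2, a spliceosome component, and Zhx1, a zinc finger and homeobox repressor, had no read in any of the 10 cells of 4.5 months, and were at 87.1 and 142 CPM in the summed 2-month counts. Against a floor of 3 counts over the group, these are at least 260-fold and at least 425-fold lower at 4.5 months, which covers counting error only. Nudt19, a peroxisomal nudix hydrolase, Chmp5, an ESCRT-III subunit, Fez2, Enoph1 and Commd10 had 10 or more reads in 9 to 13 of 15 cells and 1 to 3 of 10. Nudt19 shares 35% of its exon bases with a neighbour. Each of the 12 stayed called with any 1 cell left out.

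Genes read in nearly all cells differed less. Among the 554 genes with 10 or more reads in at least 80% of cells of both ages, those with the largest mean difference and a summed level at least 1.5 times apart were taken, 8 each way. Cnih1, a cargo receptor of the early secretory pathway, ran from 0 through 242 to 591 CPM at 2 months and from 198 through 814 to 1308 CPM at 4.5 months, and was called higher (summed 323 and 681 CPM). Glul, the glutamine synthetase of astroglia, had summed levels of 714 and 1138 CPM and means of 7.60 ± 3.60 and 9.52 ± 1.48, with every 4.5-month cell at 80.6 CPM or more and 13 of 15 cells at 2 months with 10 or more reads. Epdr1, Vps28, Psenen, a subunit of gamma-secretase, Chmp2a, Sept7 and Elovl5, a fatty acid elongase, had the same form: all 10 cells of 4.5 months and 12 or 13 of 15 of 2 months had 10 or more reads, and none reached 2 times in the sums. In the other direction Fndc4, a fibronectin domain protein (chromosome 5, 31292242 to 31296080), ran from 147 through 437 to 1309 CPM and from 0 through 194 to 377 CPM, with means of 8.70 ± 0.81 and 6.18 ± 3.31, and was called lower. Entpd2, an ectonucleotidase that marks adult neural stem cells, had 956 and 527 CPM in the sums, and Lamp2, an X-linked lysosomal membrane protein, 1018 and 521. Lamp2 had no read in 1 cell at 4.5 months and 373 CPM or more in every 2-month cell. Asah1, the lysosomal acid ceramidase, Lsamp, Rgs20, Lxn and the X-linked Zcchc18 completed the group, of which Rgs20 and Zcchc18 were called lower.

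Calls among Wnt pathway genes went both ways, with about as many members higher as lower. Of 21 measured members 6 (28.6%) were called lower, beside 15.7% of all genes, and 3 (14.3%) higher, beside 13.6%, and the list median was 0.02. The lower calls were of 2 ligands, 1 receptor, 1 nuclear effector and 2 inhibitors. Wnt7a and Wnt7b, ligands made by stem cells and neurons, had 10 or more reads in 6 of 15 and 1 of 10 cells and in 7 and 2. Fzd3, a receptor, had 10 or more reads in 6 and 2 cells, and Lef1, the transcription factor that acts with beta-catenin, in 7 and 1, at summed levels of 39 and 1.34 CPM. The secreted inhibitor Frzb, also used to mark quiescence, was lower too: it ran from 0 through 685 to 1835 CPM at 2 months and from 0 through 2.71 to 833 CPM at 4.5 months, and had 10 or more reads in 9 of 15 and 4 of 10 cells. Rnf43, which removes Frizzled receptors, had 10 or more reads in 3 and 0 cells. Those called higher were Rspo3, Apc and Lrp6. Lrp6, the co-receptor of Wnt ligands, had 10 or more reads in 2 of 15 and 3 of 10 cells, with a difference of 1.01, and was called in 11 of the 25 leave-outs. Wnt7a, Lef1 and Rnf43 passed the filter only through the 2-month cells, and Lrp6 and Rspo3 only through the 4.5-month cells. With medians over cells 2 members were called lower and 1 higher.

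Genes of Reelin and semaphorin signalling had a list median of -0.87. Of 17 measured, 12 had a lower mean, 4 (23.5%) were called lower, beside 15.7% of all genes, and 3 (17.6%) higher, beside 13.6%. Only 7 of the 17 passed the filter at both ages. The lower calls were of Plxnb1, the semaphorin receptor described above, Plxnc1, Sema6a, a membrane semaphorin, and Dab1, the adaptor that carries the Reelin signal. Dab1 (chromosome 4, 103619359 to 104744844) ran from 0 through 171 to 413 CPM at 2 months and from 0 through 0 to 167 CPM at 4.5 months, with 10 or more reads in 11 of 15 and 4 of 10 cells. Sema6a had 10 or more reads in 7 of 15 and 0 of 10 cells. Plxna4, Nrp1 and Sema4d were called higher. The list median was -0.44 with a pseudocount of 10, -0.35 with no filter (27 members) and 0 with medians over cells. Among genes read in at least 50% of cells it was -3.07, which rests on 3 members and is the value of Dab1.

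Genes of glycolysis and pyruvate use were split. Of 28 measured genes of glycolysis and pyruvate use, 15 had a higher and 13 a lower mean, with a median of 0.10, and 4 (14.3%) were called lower, beside 15.7% of all genes, and 1 (3.57%) higher, beside 13.6%. Those called lower were Pdha1 and Pdhx, subunits of the pyruvate dehydrogenase complex, Pcx, pyruvate carboxylase, and Gpt2, the mitochondrial alanine transaminase. Pcx ran from 0 through 358 to 2538 CPM at 2 months and from 0 through 0 to 395 CPM at 4.5 months, with 10 or more reads in 11 of 15 and 3 of 10 cells. Pdha1, which is X-linked, had 10 or more reads in 10 of 15 and 3 of 10 cells, and Gpt2 in 6 and 1. Pdk4, the kinase that inhibits pyruvate dehydrogenase, was the 1 member called higher, with no read in the 15 cells of 2 months and 10 or more reads in 3 of 10 cells of 4.5 months. This is at least 220-fold higher in the sums, against the floor of 3 counts. Gpt2 passed the filter only through the 2-month cells and Pdk4 only through the 4.5-month cells, in each case the age where it was higher. Pdhx was called in 12 of the 25 leave-outs. Dlat, another subunit of the complex, had the highest difference of the list, 2.51, with 10 or more reads in 3 of 15 and 5 of 10 cells and summed levels of 55.4 and 103 CPM, and was not called. Pdhb, a further subunit, had a difference of 0.05. Dlat and Pdhb were picked out after their values were seen.

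In cholesterol synthesis 14 of 19 measured enzymes had a lower mean, and the list median was -0.52, below 0 under all 8 alternatives and with each cell left out. Only 3 (15.8%) were called lower, the share found over all genes, and 1 (5.26%) higher, beside 13.6% of all genes. Sqle, the squalene epoxidase that is a limiting step of the pathway, ran from 0 through 330 to 1800 CPM at 2 months and from 0 through 100 to 1156 CPM at 4.5 months, with 10 or more reads in 14 of 15 and 6 of 10 cells. Dhcr7, which makes cholesterol in the last step, had 10 or more reads in 11 and 4 cells, and Mvk, mevalonate kinase, in 4 and 1. Mvk was 1 of 2 members that passed the filter only through the 2-month cells, and it was higher there. Pmvk, the kinase that acts after Mvk, was called higher, with 10 or more reads in 6 of 15 and 7 of 10 cells. Hmgcs1, the synthase at the head of the pathway, had 6.66 ± 4.32 and 6.27 ± 4.35 and was close to equal. In the other qNSC cells the list median was -1.07. There 6 of 19 measured members were called lower and 0 higher, beside 15.2% and 7.57% of all genes.

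Of 25 measured chromatin regulators 6 (24%) were called lower, beside 15.7% of all genes, among them Ezh1, Hdac1 and Kmt2a, and 2 (8%) higher, beside 13.6%. The latter were Tet2, which oxidises methylcytosine, and Smarca4, the ATPase of BAF complexes. Tet2 had 10 or more reads in 1 of 15 and 5 of 10 cells. Only 17 of the 25 passed the filter at both ages. Of the rest 4, Kmt2a among them, passed only through the 2-month cells, and 4, Tet2 among them, only through the 4.5-month cells. The list median was -0.35. It was 0.31 among genes read in at least 50% of cells (5 members) and 0.35 in the other qNSC cells. In oxidative stress and metal defence 22 of 28 had a higher mean, with a median of 0.39 that stayed above 0 under every alternative and leave-out. Only 1 (3.57%), Gclm, was called higher, a share below that over all genes. In the other qNSC cells the median of this list was -0.65. The metallothionein Mt1 had 10.90 ± 0.85 and 10.99 ± 1.02. Oxidative phosphorylation had 27 of 46 higher and a median of 0.29, which was -0.05 with medians over cells and -0.68 in the other qNSC cells. Of its members 1 (2.17%) was called higher, beside 13.6% of all genes, and 0 lower, beside 15.7%. Cytosolic ribosomal proteins had 30 of 65 higher and a median of -0.10. Of them 3 (4.62%) were called higher and 5 (7.69%) lower, both shares below those over all genes. Of 18 measured extracellular matrix genes 3 (16.7%) were called higher, beside 13.6% of all genes, and 1 (5.56%) lower, beside 15.7%. The higher calls were of Prelp, Hapln1, a link protein of perineuronal matrix, and Gpc1, a glypican. The lower call was of Lamc1, a laminin chain. Gpc1 passed the filter only through the 4.5-month cells and Lamc1 only through the 2-month cells. Of 4 measured progenitor and neuroblast genes 1 (25%) was called lower, a share that rests on 1 gene. That gene, Sox11, had 10 or more reads in 5 of 15 and 0 of 10 cells and passed the filter only through the 2-month cells.

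**Figure D4:**
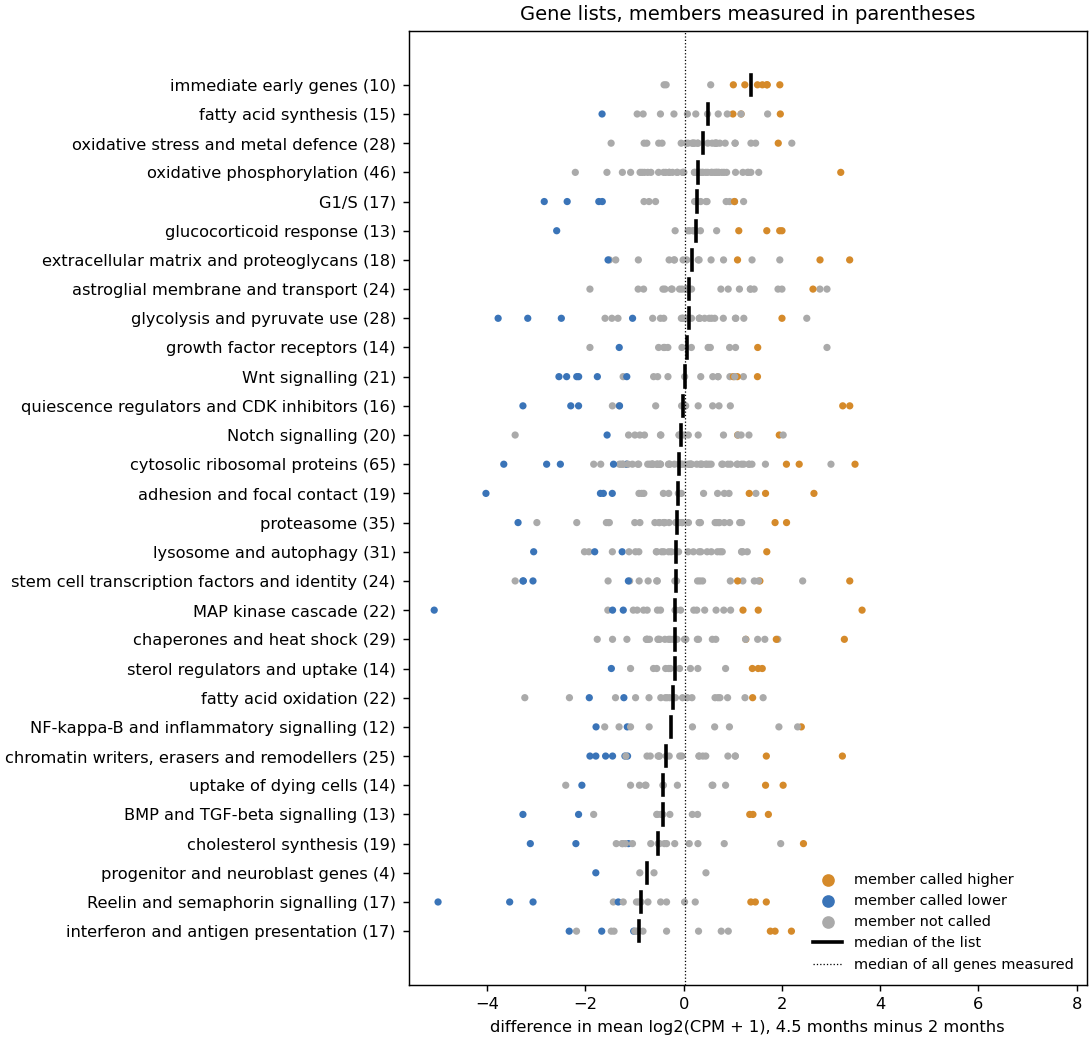
Difference in mean log2(CPM + 1), 4.5 minus 2 months, of each measured member of the gene lists with at least 3 measured members, with the list median as a bar and the median of all genes (0.02) as a dotted line. Immediate early genes have the highest median, 1.37, and interferon and antigen presentation the lowest, -0.92, and members of nearly every list lie on both sides of 0.

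The same genes were then read in the 35 qNSC cells of the other colour codes, 17 at 2 months and 18 at 4.5 months, in which 428 of 5651 measured genes (7.57%) were called higher and 857 (15.2%) lower. Of the 5246 genes measured in both subsets, 70 were called higher in both, which is 12.3% of the 567 higher calls in the green-coded cells and 19.3% of the 363 in the others, beside 6.92% of all 5246 called higher in the others. For lower calls 137 were shared, 19.2% of 712 and 18.3% of 748, beside 14.3%. The opposite call was made for 85 (15%) and 54 (7.58%) genes. Most calls in the green-coded cells thus had no match in the other qNSC cells, and the difference between subsets was not tested.

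Some genes named above had the same call in both. Prelp, a matrix leucine-rich repeat protein (chromosome 1, 133910304 to 133921414), had differences of 2.77 in green-coded and 3.38 in other qNSC cells. Mertk, a receptor tyrosine kinase used in phagocytosis, had 2.02 and 2.35. Wnt7a had -2.14 and -3.25, Gpt2 -2.49 and -3.14, Sqle -3.12 and -2.63, and Dab1 -3.07 and -2.29. These genes were known from earlier results on all qNSC cells, which include the green-coded ones, so the match is no independent support.

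The genes of largest difference in the green-coded cells mostly did not pass the limits in the others. Of the 12 higher genes 3 (C1galt1c1, Msantd4 and Arsk) were called higher there, and of the 12 lower genes 0 were called lower. Pycrl was at 3.20 and 1.80, a difference of -1.40, and Otub1 at 3.12 and 1.93. Map2k2 had -1.35 and Plxnb1 -1.90, in the same direction at a smaller size, while Nudt19 had 1.59 and Cdh2 0.25. Idi1, an isomerase of sterol synthesis, differed by -1.19 in green-coded and -4.19 in other cells. Frzb was read with 10 or more reads in 1 of 17 and 0 of 18 of the other cells, so that its difference had little room there. Hopx was at 10.33 and 9.88.

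**Figure D5:**
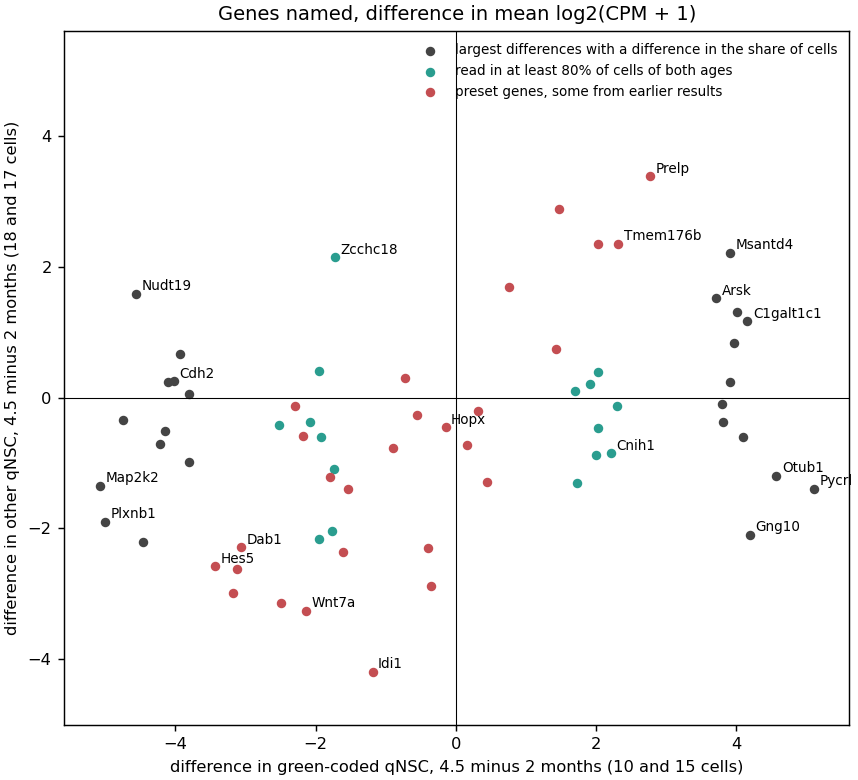
Difference in mean log2(CPM + 1), 4.5 minus 2 months, of the named genes in green-coded qNSC cells (horizontal, 15 and 10 cells) and in the other qNSC cells (vertical, 17 and 18 cells). Genes chosen for their size in the green-coded cells lie far from 0 on the horizontal axis by that choice, and spread to both sides of 0 on the vertical axis.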

How the data were processed

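Single cells were sequenced after SMART-Seq v4 amplification. The authors deposited estimated counts per gene and cell and a second table of TPM. Per the submitters' processing notes, STAR and RSEM were used with the mm10 build. How strand was treated is not given in the sources used here. Counts were rounded to whole numbers (4.44% of the values above 0 were not whole, tolerance 1e-06), scaled to CPM over the listed genes and taken as log2(CPM + 1), a scale that understates fold differences of low genes. Shares have exact Clopper-Pearson and sums exact Poisson 95% intervals. They cover counting error only, because the kit adds no molecular identifiers and reads of 1 molecule are not independent. Title numbers only name cells. Total counts per cell limit what a share of cells can show.

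The members, the gene lists and the rule for named genes were chosen with earlier results of these data known. The rule named, each way, the 12 largest differences among called genes whose share of cells differed by 25 points, the 8 largest among genes with 10 reads in 80% of the cells of both ages and summed levels 1.5 times apart, preset genes, and up to 3 members each way of a list described. Predicted genes, pseudogenes and sex-linked transcripts were left out. Further members of lists (Apoe, Slc1a3, Mt1, Kmt2a, Dlat, Pdhb) were picked out after their values were seen. Positions are from GENCODE (mm10) and 89 of the 214 named genes share exon bases with another gene.

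The procedure was tested on simulated data with known differences. In a first, wider draw of genes the direction of simulated increases was recovered less well; the draw was then narrowed to genes read in most cells, where direction was recovered for most, so the test speaks for well-detected genes only. In both draws genes without a simulated difference met the call limits about as often as genes did in the real data. The simulated levels and shares of cells with reads came from the cells of both ages together, and the spread was set, not estimated. The likeness therefore cannot decide how many calls go with age. A call is read only as a size in these cells, not as evidence of an age effect. Python 3.11.15, numpy 2.4.6, pandas 2.3.3, scipy 1.17.1 and matplotlib 3.10.9 were used. Alternatives were another scaling, the deposited TPM, another pseudocount, other filters and limits, thinning, medians over cells, and leaving out cells.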

Additional observations from a re-analysis of the deposited data

Results flagged for a closer look

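In 15 of 83 quantities checked at 4.5 months, 1 of the 10 cells lay apart from the rest by its gap to the nearest cell, measured against the whole range of the group. The limit used would flag about 1 in 20 groups of normally distributed values, or 4.15. Values with many cells at 0 are not of that kind, and some genes were named because few 4.5-month cells had reads of them. The 15 therefore cannot be read as an excess over 4.15. All values are on the log2(CPM + 1) scale, on which a cell with no read is at 0 and lies far from cells with reads.

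A cell high above the others was found for 5 genes called lower at 4.5 months: Map2k2 (7.51), Fez2 (7.03), Chmp5 (7.43), Gpt2 (7.21) and Wnt7a (7.70), and for Prox1, the granule cell determinant (6.81). That cell held between 98.4% and 100% of the gene's reads at 4.5 months.

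A cell far below the others was found for Cul1, Entpd2, Lamp2, Sox9 and Tmem176b, each at 0, and for Hopx at 7.37. In the summed marker levels, the lowest cell for neuroblast markers was at 0, the highest for ependymal markers at 3.47 and the highest for red blood cell markers at 1.42. The last 2 correspond to a few reads.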

How the results depend on the processing

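The counts of genes called higher and lower (1011 and 1164) were 430 and 507 with a pseudocount of 10, 308 and 268 among genes with 10 reads in 50% of cells, 358 and 367 with medians over cells, and 156 and 197 with limits of 4 times and 2 on the log2 scale. They were within 1.5 times of the main counts under the other alternatives, and 948 to 1093 and 1092 to 1305 with each cell left out. Early genes called higher (7) were 4 with the deposited TPM, 1 under the 50% filter and 1 with medians over cells, and 2 to 7 with each cell left out, when the list median (1.37) was 0.63 to 1.91. That median was 0.46 with no filter (21 members), 0.55 under the 50% filter (3 members) and 0 with medians over cells. The Fos difference changed sign, to -0.28, with medians over cells. The median over all genes ranged from -0.11 to 0.10 in the leave-outs. Of 31 gene lists, the median changed sign under at least 1 alternative for 17 and with at least 1 cell left out for 19.

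The shares of green-coded higher and lower calls also made in the other qNSC cells (12.3% and 19.2%) were 4.53% and 8.91% with a pseudocount of 10, 8.13% and 12.7% with no filter and 7.84% and 11.7% with medians over cells. The higher share was 17.8% after thinning and the lower share 15.5% under the 50% filter, and leave-outs gave 10.9% to 13.5% and 17.3% to 20.1%. Of the 12 genes named each way, Msantd4 lost its call under 4 alternatives, Sept4 without cells 27 and 34 of 4.5 months, and Zhx1 under the 50% filter.

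No paired analysis was possible because the title numbers only name cells and no label ties a cell to an animal. With 1 sample per age and 10 to 15 cells, shares of cells have wide intervals, and a gene read in some cells and not in others can meet the call limits through which cells were drawn.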
